A study of Mus musculus with 6 samples.

Results

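The 9 genes described here encode the class I phosphoinositide 3-kinases (PI3Ks) and SHIP1, a lipid phosphatase that works against them. They were taken by name from a table of 21878 genes. They comprise the catalytic subunits Pik3ca, Pik3cb, Pik3cd and Pik3cg, the regulatory subunits Pik3r1, Pik3r2, Pik3r5 and Pik3r6, and Inpp5d, which encodes SHIP1. RNA sequencing was done on wild-type C57BL/6 mouse bone marrow-derived macrophages, grown in 50 ng/mL macrophage colony-stimulating factor. All cells had first been co-cultured for 48 h with a mouse lung carcinoma line, LLC. A transwell membrane with 0.4 µm pores stood between the tumour cells and the macrophages. After a change of medium, 3 libraries came from cells given 100 µg/mL of the plant sesquiterpene β-elemene for 24 h, and 3 came from cells given the same volume of buffered saline, PBS, over the same 24 h. The submitted names mark β-elemene libraries M1 and PBS libraries M2, without an explanation in the labels. The series title names suppression of PI3K and AKT signalling downstream of FLT1 among the study's subjects, and the comparison asks which transcripts of this kinase family differ between drug and vehicle. Separate cultures or animals are not stated for the replicates, and each p-value therefore rests on the spread among 6 libraries that may differ only technically.

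Class I PI3Ks phosphorylate the membrane lipid phosphatidylinositol bisphosphate to the trisphosphate, PIP3, which recruits kinases such as AKT and BTK and guanine nucleotide exchange factors to the membrane. Class IA enzymes pair p110α, p110β or p110δ with a p85-type regulatory subunit and respond to phosphotyrosine signals from growth factor receptors, Fc receptors and adaptors. The class IB enzyme pairs p110γ with p101 or p84 and responds to G protein βγ subunits and RAS. SHIP1 removes a phosphate from PIP3 in blood cells. In macrophages these enzymes are known for roles in survival, chemotaxis, phagocytosis and the restraint or support of inflammatory gene expression. Transcript levels are all that was measured here, and lipid levels, protein and phosphorylation were not.

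Total counts per library ran from 18916844 to 20550078 for β-elemene and from 20524959 to 20729887 for PBS. Macrophage markers summed to 16588 to 17158 CPM with β-elemene and 12710 to 13685 CPM with PBS, and Lyz2 led in both groups (CPM, counts relative to library size after TMM scaling). The order of these sums belongs to the TMM scaling, and with library size alone the PBS sums were the higher ones. The 8 macrophage markers did not move as 1 group. Csf1r, the receptor for the growth factor in the medium, averaged 928 CPM with β-elemene and 2672 CPM with PBS, and Itgam averaged 861 CPM with β-elemene and 1028 CPM with PBS. Fcgr1 averaged 1490 CPM with β-elemene and 206 CPM with PBS, and Cd14 averaged 1158 CPM with β-elemene and 235 CPM with PBS. Of the 8, 6 were called higher and 2 lower, against 3 higher and 4 lower with library size alone, where Lyz2, Cd68 and Adgre1 turned negative and the other 5 kept their sign. Of 7 epithelial markers chosen for carcinoma cells, the defining Epcam, Krt8 and Krt19 had between 0 and 2 counts in any library, Cldn7 led, and the whole list summed to 0.0615 to 0.195 CPM with β-elemene and 0 to 0.194 CPM with PBS. The T and NK cell list summed to 5.73 to 7.97 CPM with β-elemene and 5.38 to 7.15 CPM with PBS, led by Cd4. B cell markers, led by Cd79b, summed to 0.984 to 1.90 CPM with β-elemene and 1.94 to 4.45 CPM with PBS. The dendritic cell list summed to 4.23 to 10.98 CPM with β-elemene, where Ccr7 had the highest mean, and to 4.03 to 4.86 CPM with PBS, where Zbtb46 had it. Ccr7 averaged 5.66 CPM with β-elemene and 0.610 CPM with PBS, and Zbtb46 averaged 0.691 CPM with β-elemene and 3.26 CPM with PBS. Neutrophil markers summed to 536 to 643 CPM with β-elemene and 540 to 585 CPM with PBS, nearly all of it Csf3r. Under that sum, S100a8 averaged 15.8 CPM with β-elemene and 4.03 CPM with PBS, Ngp 5.47 CPM with β-elemene and 1.93 CPM with PBS, Camp 1.13 CPM with β-elemene and 0.0519 CPM with PBS, and Mpo 0.145 CPM with β-elemene and 1.54 CPM with PBS. The mast cell and basophil list stood at 151 to 190 CPM with β-elemene and 5.90 to 14.7 CPM with PBS, almost wholly from Hdc. Its other genes were too low to be tested. Mcpt8 had 9, 8 and 15 counts with β-elemene and 0, 2 and 2 with PBS. Cpa3 had 2, 1 and 5 counts with β-elemene and 0 in each PBS library. Mcpt4 had 0, 0 and 0 counts with β-elemene and 0, 1 and 1 with PBS, and Fcer1a had 0 in every library. The fibroblast list stood at 1.69 to 3.87 CPM with β-elemene and 13.2 to 17.2 CPM with PBS. Its highest mean was that of Dcn with β-elemene, at 1.21 CPM, and of Col3a1 with PBS, at 4.87 CPM, while Col1a2 was highest over all 6 libraries. The part of these marker lists in the results below was not tested.

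All 9 genes passed the filter on low counts and all 9 passed the test (quasi-likelihood F test in edgeR, p adjusted by Benjamini-Hochberg over all 11459 genes tested), against a background of 76.7% of all genes. Of the 9 genes, 6 were higher with β-elemene, where 36.6% of all genes were, and 3 were lower, where 40.2% of all genes were. The groups did not overlap for any of the 9 genes, as for 79.9% of all genes tested. A gene that passed the test is thus no exception in this comparison, and the sizes below carry more than the count. The median log2 fold change (β-elemene over PBS) was 0.90 over the 9 genes and -0.06 over all genes tested. Pik3ca turned to a negative log2 fold change with the upper quartile or library size alone in place of TMM, and the direction of the other 8 genes did not depend on the scaling tried.

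**Figure D1:**
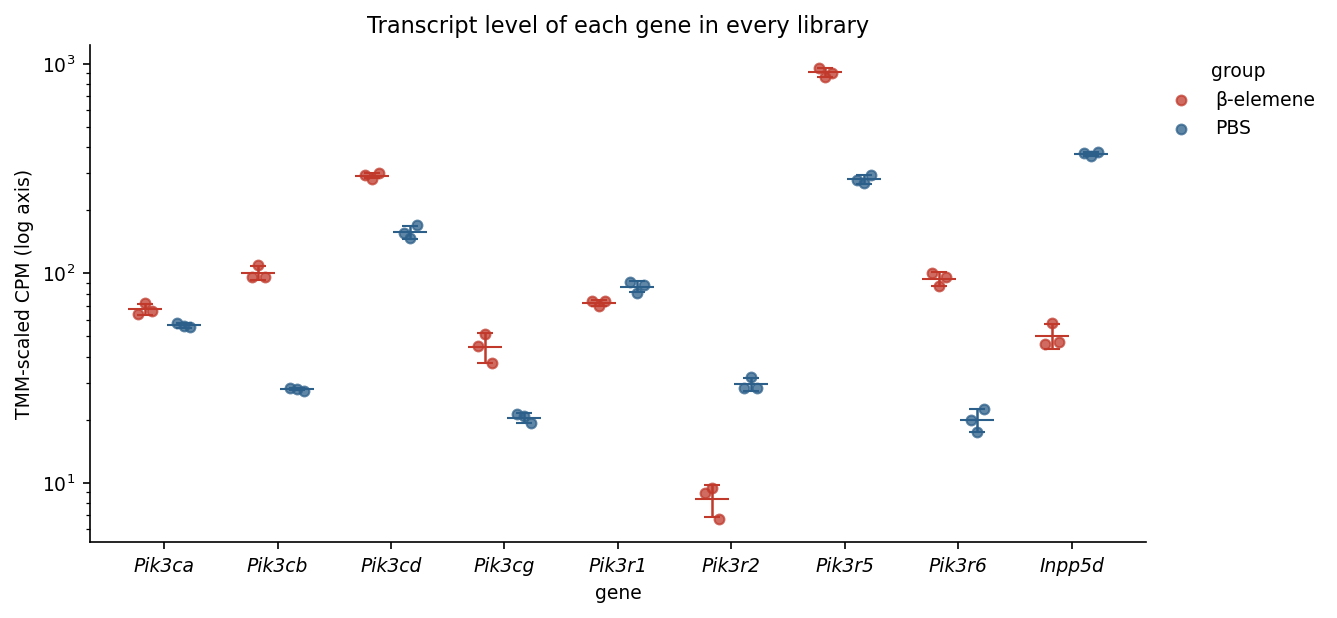
Transcript level of each gene in every library, in TMM-scaled CPM on a log axis; points are the 3 libraries of each group (β-elemene left, PBS right), bars the mean ± SD. The groups do not overlap for any gene, and Inpp5d falls to 50.4 CPM with β-elemene against 371.8 CPM with PBS.

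Promoter sequences are given for 3 genes on whose values the results turn. Of the 9 genes, 8 had at least 1 promoter window in RefSeq (GRCm38.p6), 12 windows in all, each covering 250 bases before and 50 bases from an annotated start. Inpp5d is shown as the gene with the largest difference, Pik3cb as the catalytic gene with the largest rise, and Pik3r5 as the most abundant gene that rose. Inpp5d lies at chr1:87620062-87620361 on the plus strand, Pik3cb at chr9:99140162-99140461 on the minus strand and Pik3r5 at chr11:68431875-68432174 on the plus strand, and each window reads 5′ to 3′ along the gene. Capitals mark matches to any of 6 motifs searched on both strands.
Inpp5d: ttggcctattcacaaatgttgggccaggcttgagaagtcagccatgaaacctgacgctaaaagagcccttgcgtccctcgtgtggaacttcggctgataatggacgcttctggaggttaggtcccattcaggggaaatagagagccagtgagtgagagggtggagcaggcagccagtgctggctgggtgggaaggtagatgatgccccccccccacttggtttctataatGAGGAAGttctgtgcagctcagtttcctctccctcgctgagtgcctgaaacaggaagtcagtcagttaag
Pik3cb: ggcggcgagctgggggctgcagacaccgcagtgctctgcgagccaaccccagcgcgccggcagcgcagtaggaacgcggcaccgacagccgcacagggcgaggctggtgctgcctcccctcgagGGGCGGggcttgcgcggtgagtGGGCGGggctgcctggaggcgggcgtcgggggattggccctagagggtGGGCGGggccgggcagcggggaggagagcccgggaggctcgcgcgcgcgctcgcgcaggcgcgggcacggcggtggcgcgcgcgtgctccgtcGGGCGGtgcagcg
Pik3r5: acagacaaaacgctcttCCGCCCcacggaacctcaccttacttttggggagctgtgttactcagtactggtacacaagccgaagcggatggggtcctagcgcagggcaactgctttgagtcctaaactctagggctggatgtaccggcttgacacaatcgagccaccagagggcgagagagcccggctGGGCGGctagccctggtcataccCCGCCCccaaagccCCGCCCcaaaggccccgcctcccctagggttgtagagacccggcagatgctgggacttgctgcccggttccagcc
The motifs were the ETS-type GAGGAAG, the interferon-response motif (GAAA, any 2 bases, GAAA), the NF-kB-type motif (GGGAA, any 3 bases, CC), the AP-1 site TGANTCA, the FOXO-type TGTTTAC and the GC box GGGCGG, and none of the matches in these 3 windows overlapped a match to another motif. GAGGAAG stood 20 bases before the start of Inpp5d, and 13.6% of 32851 mouse promoter windows of the same length hold it. The 2 overlapping windows of Pik3cg held it too, at the same 2 genomic sites in both, while no window of the other 6 genes did. The windows of Pik3cb and Pik3r5 each held 4 matches to GGGCGG, which is in 35.7% of all windows. Pik3cb had 79.0% G and C and 44 CpG dinucleotides, and Pik3r5 had 62% and 16. Inpp5d had 53.7% and 6, near the medians of all windows at 52.7% and 7. The interferon-response motif (3.44% of all windows) matched in none of the 12 windows, the NF-kB-type motif (5.78%) in Pik3r2, TGANTCA (7.81%) in Pik3ca and TGTTTAC (3.65%) in 1 window of Pik3cg. A match is a match of letters, and binding was not measured.

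Inpp5d encodes SHIP1, the inositol 5-phosphatase of blood cells that turns PIP3 into a bisphosphate, and its transcript was lower with β-elemene. Inpp5d (chromosome 1, 87620312 to 87720510, GRCm38.p6, plus strand) had 745, 893 and 770 counts in the β-elemene libraries and 9637, 9362 and 9705 in the PBS libraries. This came to 45.8, 58.1 and 47.2 CPM with β-elemene and 373.3, 363.7 and 378.4 CPM with PBS. The highest β-elemene library lay far under the lowest PBS library. The log2 fold change was -2.88 (SE 0.08, edgeR adjusted p = 3.51e-12), a 7.38-fold lower level with β-elemene. By size this difference ranked at the 91.6th percentile of all genes tested. In bulk samples fewer cells of a type and less RNA per cell cannot be told apart, which holds for every gene below.

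Of the catalytic genes, Pik3cb, which encodes p110β, rose most. Its libraries stood at 96.4, 109.5 and 96.1 CPM with β-elemene and 28.2, 28.2 and 27.6 CPM with PBS. The groups were widely apart, at 1.85 on the log2 scale (SE 0.07, edgeR adjusted p = 2.13e-11), or 3.6-fold. Pik3cg, which encodes the G protein-driven p110γ, stood at 44.8, 51.6 and 37.4 CPM with β-elemene and 21.3, 20.7 and 19.2 CPM with PBS. The β-elemene libraries of Pik3cg differed more among themselves than the PBS libraries did, and the lowest of them still lay above every PBS library (log2 fold change 1.12, SE 0.11, edgeR adjusted p = 9.27e-07). Pik3cd, which encodes p110δ, the leukocyte class IA enzyme, stood at 294.4, 283.0 and 300.3 CPM with β-elemene and 154.8, 147.3 and 169.2 CPM with PBS. All 3 β-elemene libraries were higher (log2 fold change 0.90, SE 0.06, edgeR adjusted p = 1.55e-08). Pik3ca, which encodes the widely expressed p110α, stood at 64.0, 72.1 and 66.0 CPM with β-elemene and 57.8, 56.0 and 55.3 CPM with PBS. Its groups lay close together, 0.26 apart on the log2 scale (SE 0.06, edgeR adjusted p = 0.00212). For Pik3ca the value was -0.06 with the upper quartile (adjusted p = 0.386) and -0.38 with library size alone (adjusted p = 9.97e-05), so its direction rests on the scaling.

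The regulatory genes divided by class. Pik3r5, which encodes p101, the class IB regulatory subunit, had the highest counts of the 9 genes with β-elemene. It stood at 957.5, 864.4 and 900.8 CPM with β-elemene and 279.1, 268.7 and 295.6 CPM with PBS (log2 fold change 1.69, SE 0.06, edgeR adjusted p = 3.55e-11). Pik3r6, which encodes p84, the other class IB regulatory subunit, stood at 100.3, 86.6 and 95.5 CPM with β-elemene and 20.0, 17.4 and 22.6 CPM with PBS. The log2 fold change of 2.23 for Pik3r6 (SE 0.09, edgeR adjusted p = 1.78e-10), or 4.70-fold, was the largest rise among the 9 genes. Pik3r1, which encodes p85α and shorter forms, stood at 73.3, 69.8 and 73.6 CPM with β-elemene and 90.8, 80.6 and 87.7 CPM with PBS. The fall of Pik3r1 was small, at -0.26 on the log2 scale (SE 0.06, edgeR adjusted p = 0.00182), and the groups were separate. Pik3r2, which encodes p85β, stood at 8.92, 9.44 and 6.68 CPM with β-elemene and 28.4, 32.1 and 28.3 CPM with PBS. The groups were far apart, and the log2 fold change was -1.83 (SE 0.12, edgeR adjusted p = 7.46e-09), or 3.55-fold lower with β-elemene.

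**Figure D2:**
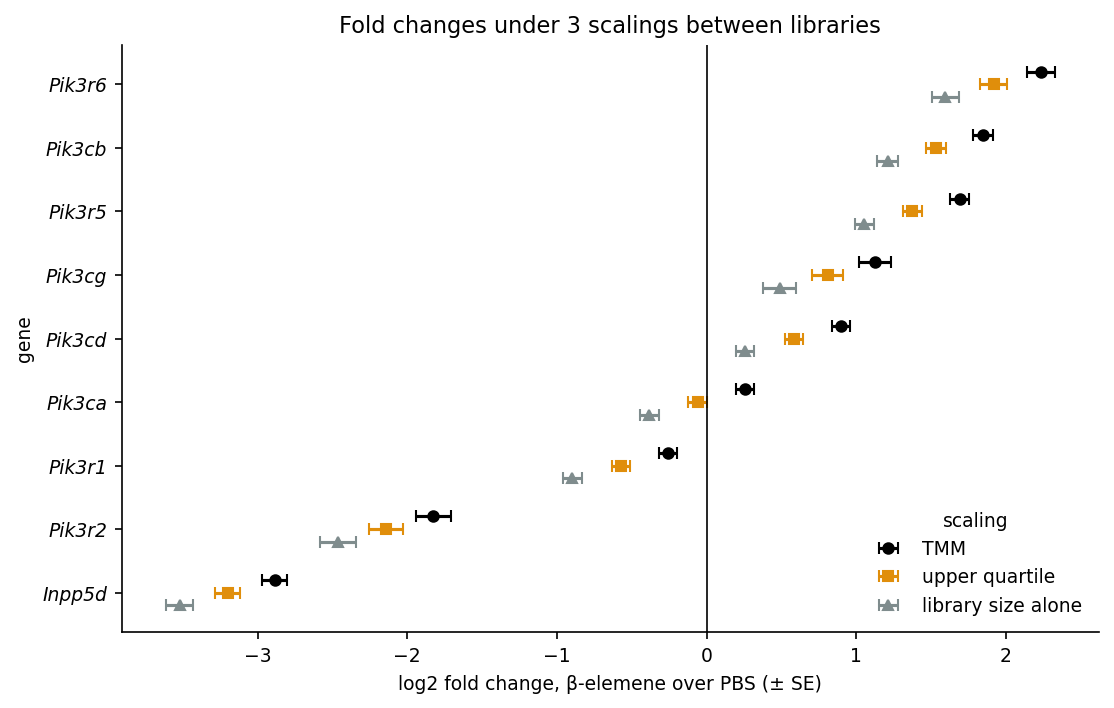
Log2 fold change of each gene, β-elemene over PBS, with its standard error, under 3 ways of scaling the libraries. A given change of scaling moves all genes by about the same amount. Pik3ca is the gene whose sign turns, at 0.26 with TMM, -0.06 with the upper quartile and -0.38 with library size alone.

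The scaling moves all genes together. Over all genes, the median log2 fold change shifted by -0.32 with the upper quartile and by -0.64 with library size alone. With the upper quartile 82.7% of all genes passed, 25.7% higher and 57.0% lower, and 8 of the 9 genes did, 5 higher and 3 lower. With library size alone 88.7% passed, 18.9% higher and 69.8% lower, and all 9 genes did, 5 higher and 4 lower. Relative to the median of all genes, Pik3ca stood at 0.32 with TMM and 0.32 with library size alone, and Pik3r1 at -0.20 under both. Inpp5d stood 2.82 below the median of all genes on the log2 scale under both, that is at -2.82. TMM factors ran from 0.794 to 0.812 with β-elemene and from 1.24 to 1.26 with PBS.

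Ratios within a library do not depend on that scaling, and they were taken per kilobase of exon (union of the exons of basic GENCODE M21 transcripts, 3165 bases for Pik3r2 to 9068 bases for Pik3ca). Among the catalytic transcripts Pik3cd was the main form in both groups, at 65.5%, 61.6% and 66.7% with β-elemene and 67.3%, 66.6% and 70.3% with PBS. The groups overlapped, and the difference of -3.44 percentage points did not pass (exact two-sided permutation test, p = 0.2, where 3 against 3 libraries cannot go below 0.1). The share of Pik3cb was 18.2% ± 1.15 with β-elemene and 9.98% ± 0.537 with PBS (SD, n = 3 each), and that of Pik3ca was 8.72% ± 0.439 with β-elemene and 14.4% ± 0.771 with PBS. Both differences had separate groups and the smallest p the design allows (exact permutation test, p = 0.1). Pik3cg held 8.41% ± 1.25 with β-elemene and 7.59% ± 0.666 with PBS, with overlapping groups (exact permutation test, p = 0.4, n = 3 each). Pik3cb thus passed Pik3ca in the order of catalytic transcripts per length, while Pik3ca stood above Pik3cb with PBS.

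Among the regulatory transcripts per kilobase, Pik3r5 held 83.4%, 83.5% and 83.3% with β-elemene and 70.2%, 70.1% and 71.1% with PBS. Pik3r6 held 11.7% ± 0.331 with β-elemene and 6.76% ± 0.594 with PBS (SD, n = 3 each). The class IA forms held the remainder. Pik3r1 held 3.84% ± 0.130 with β-elemene and 12.5% ± 0.589 with PBS, and Pik3r2 held 1.06% ± 0.204 with β-elemene and 10.3% ± 1.15 with PBS. All 4 differences had separate groups and reached the smallest p the design allows (exact permutation test, p = 0.1, n = 3 each). Set against their own partners, the class IA regulatory transcripts (Pik3r1 and Pik3r2) amounted to 0.156 ± 0.00561 of the class IA catalytic transcripts with β-elemene and 0.519 ± 0.0295 with PBS (SD, n = 3 each). The class IB regulatory transcripts (Pik3r5 and Pik3r6) amounted to 33.7 ± 6.12 times Pik3cg with β-elemene and 21.5 ± 2.26 times with PBS. The groups were separate for both ratios (exact permutation test, p = 0.1, n = 3 each). These ratios compare transcripts per length and say nothing of subunit protein.

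Inpp5d was also set against the sum of the 4 catalytic genes per kilobase. The ratio was 0.109, 0.135 and 0.112 in the β-elemene libraries and 1.73, 1.76 and 1.68 in the PBS libraries. SHIP1 transcripts thus outnumbered catalytic transcripts per length in every PBS library and in no β-elemene library. The mean ratio was 0.119 ± 0.0144 with β-elemene and 1.72 ± 0.0402 with PBS (SD, n = 3 each), a ratio of means of 14.5 (exact permutation test, p = 0.1, the smallest possible). Over the 11 shares and ratios tested, the 9 at the smallest p had a Benjamini-Hochberg adjusted p of 0.122 (exact permutation tests), so none passed 0.05.

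**Figure D3:**
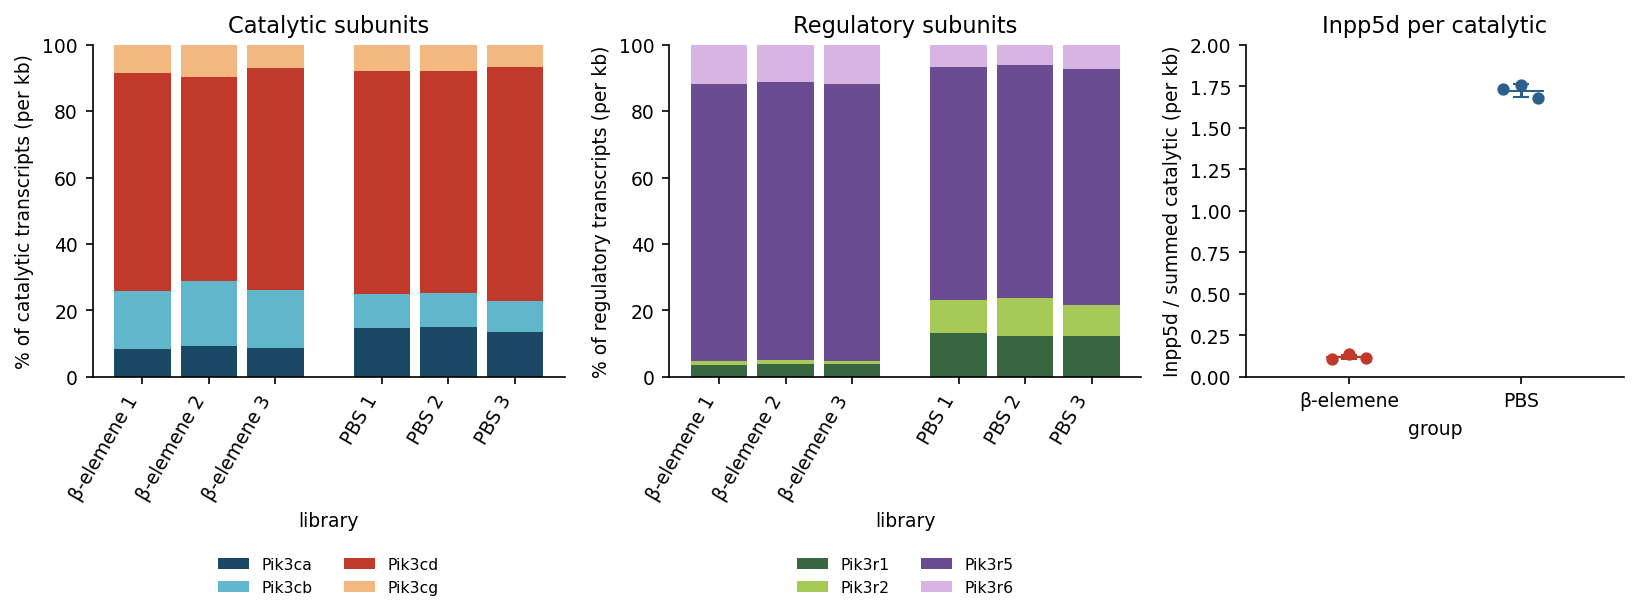
Share of each catalytic gene (left) and each regulatory gene (middle) in the summed per-kilobase counts of its kind, 1 bar per library, and Inpp5d over the summed catalytic genes (right; points are libraries, bars mean ± SD). Pik3cd stays near 62% to 70% of catalytic transcripts, Pik3r1 and Pik3r2 shrink with β-elemene, and the Inpp5d ratio is 0.119 with β-elemene and 1.72 with PBS.

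Levels per kilobase gave a different order in each group. With β-elemene, Pik3r5 led at 207.7 ± 10.7 CPM per kilobase, followed by Pik3cd at 55.0 ± 1.65, Pik3r6 at 29.1 ± 2.15 and Pik3cb at 15.5 ± 1.18. Inpp5d at 10.1 ± 1.35 and Pik3r1 at 9.55 ± 0.279 CPM per kilobase overlapped, as did Pik3ca at 7.43 ± 0.466 and Pik3cg at 7.16 ± 1.14, and Pik3r2 was lowest at 2.64 ± 0.463. With PBS, Inpp5d led at 74.6 ± 1.5 CPM per kilobase, above Pik3r5 at 64.3 ± 3.10, Pik3cd at 29.5 ± 2.10, Pik3r1 at 11.4 ± 0.690 and Pik3r2 at 9.35 ± 0.696. Pik3ca at 6.22 ± 0.144 and Pik3r6 at 6.18 ± 0.793 CPM per kilobase overlapped, and Pik3cb at 4.32 ± 0.0569 and Pik3cg at 3.28 ± 0.176 came last. Other neighbours in each order had libraries that did not overlap.

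**Figure D4:**
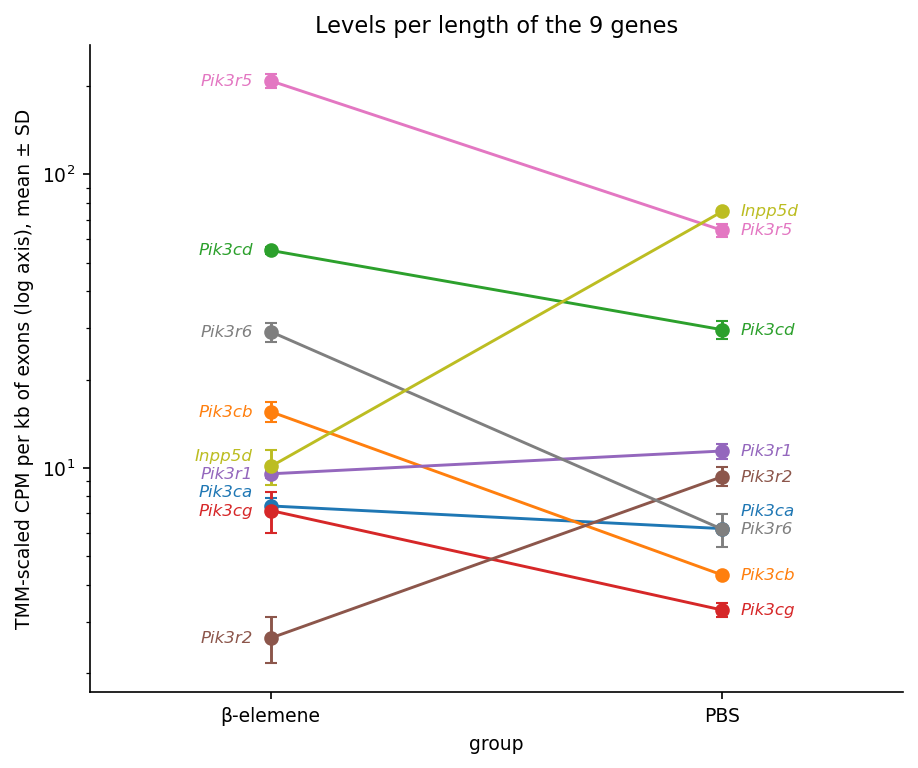
Level of each of the 9 genes per kilobase of exon on a log axis, mean ± SD over 3 libraries, β-elemene left and PBS right. Inpp5d stands first with PBS at 74.6 and below 4 other genes with β-elemene at 10.1 CPM per kilobase, and Pik3r2 stands last with β-elemene at 2.64.

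The pair of class IB regulatory genes are neighbours. Pik3r5 (chromosome 11, 68432125 to 68497849) and Pik3r6 (68503019 to 68552698) lie on the same strand with 5169 bases between them (RefSeq, GRCm38.p6). On the far side of Pik3r6, Mfsd6l, 3487 bases away, was higher too, at 2.28, 2.93 and 2.58 CPM with β-elemene and 0.232, 0.388 and 0.234 CPM with PBS. On the far side of Pik3r5, Ntn1, which encodes netrin, rose by 0.74 on the log2 scale (SE 0.24, edgeR adjusted p = 0.0141) at levels of about 2 CPM. The call for Ntn1 was lost with the upper quartile (0.42, adjusted p = 0.124), with library size alone (0.10, adjusted p = 0.702), without β-elemene replicate 1 (0.65, adjusted p = 0.0556) and without PBS replicate 1 (0.66, adjusted p = 0.0546). Beyond Inpp5d, the next coding gene Atg16l1, an autophagy gene 35496 bases away, rose by 1.21 on the log2 scale (SE 0.06, edgeR adjusted p = 4.71e-10), where Inpp5d fell. The tested coding genes flanking the other loci were mixed. Beside Pik3cd, which rose, Clstn1 and Tmem201 were lower, at -0.97 and -1.62 on the log2 scale. Mast3 and Ifi30, beside Pik3r2, were lower with it, at -1.91 and -0.53. Cep70 beside Pik3cb and Ccdc71l beside Pik3cg were higher, at 1.44 and 1.77. Zmat3 and Zfp639 beside Pik3ca stood at -1.98 and 0.39, and Slc30a5 and Cd180 beside Pik3r1 at -0.79 and 2.48. Prkar2b beside Pik3cg did not pass. Neighbours were chosen by position, after the values of the 9 genes were known.

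Places of the remaining genes were, in GRCm38.p6, chromosome 3, 32397065 to 32466112 for Pik3ca, chromosome 9, 99038402 to 99140235 for Pik3cb, and chromosome 4, 149649168 to 149702566 for Pik3cd. Pik3cg lies on chromosome 12 (32173397 to 32208677), Pik3r1 on chromosome 13 (101680761 to 101768217) and Pik3r2 on chromosome 8 (70768176 to 70776712). In RefSeq a lncRNA, Gm33470, overlaps Inpp5d, a pseudogene, Gm2773, overlaps Pik3cb, and a microRNA gene, Mir7023, overlaps Pik3cd. Whether counting used strand is not given in the sources used here, so reads of overlapping transcripts cannot be told apart from those of these genes. Kcnmb3, a coding gene that overlaps Pik3ca, had 0 counts in every library.

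Genes with the profile most like 3 of the 9 genes were sought among tested genes averaging 5 CPM or more, by the root mean square difference in centred log2 CPM over the 6 libraries. Nearest to Inpp5d were Mxd4, a MAX-binding repressor, at 0.056, Gatsl2 at 0.075 and Fam105a at 0.085. Nearest to Pik3cd were Tmem183a at 0.023, Isca2 at 0.031 and Srgn, which encodes the proteoglycan serglycin, at 0.032. Nearest to Pik3r6 were Sepw1 at 0.069, Pik3ap1 at 0.076 and Il18bp, which encodes a soluble binder of interleukin 18, at 0.076. With 2 groups of 3 libraries, such likeness mostly reflects a similar fold change.

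Genes around the 9 were taken as 8 lists by role, and each list was mixed. The counts below stand against all genes tested, of which 36.6% were higher, 40.2% lower and 76.7% called in either direction. Of 6 tested genes of other PI3K classes and PI3K adaptors, 3 rose, 1 fell and 2 did not pass, with a median log2 fold change of 0.20. The split was 3 and 3 with the upper quartile, and 2 and 3 with library size alone. Pik3ap1 encodes BCAP, an adaptor that carries class IA PI3K to receptors, and it stood at 1900 ± 84.0 CPM with β-elemene and 393 ± 18.4 CPM with PBS (SD, n = 3 each). Its log2 fold change over the 6 libraries was 2.27 (SE 0.07). Pik3ip1, a membrane inhibitor of PI3K, stood at 6.89 ± 0.989 CPM with β-elemene and 0.699 ± 0.231 CPM with PBS, a log2 fold change of 3.29 (SE 0.24). Pik3c3, the class III kinase Vps34 of endosomes and autophagy, fell by 0.50 on the log2 scale, and Pik3c2a, a class II kinase, rose by 0.53, which became -0.10 with library size alone. Pik3r3, another class IA regulatory gene, stood at 0.607 CPM with β-elemene and 0.907 CPM with PBS and did not pass (log2 fold change -0.58, SE 0.35, edgeR adjusted p = 0.148). It passed with the upper quartile (-0.89, edgeR adjusted p = 0.0299) and with library size alone (-1.21, edgeR adjusted p = 0.00508), and its values were looked up after those of the 9 genes were known.

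Of 22 other phosphoinositide and inositol phosphate phosphatases, 11 rose, 9 fell and 2 did not pass, with a median of 0.24 (9 and 11 with the upper quartile, 7 and 12 with library size alone). Inpp5a, a 5-phosphatase of soluble inositol phosphates, stood at 7.80 ± 1.12 CPM with β-elemene and 60.6 ± 4.14 CPM with PBS (SD, n = 3 each), and fell by 2.96 on the log2 scale. Synj2, a synaptojanin, fell by 2.40. Mtmr14, a myotubularin-related 3-phosphatase, stood at 166.5 ± 11.8 CPM with β-elemene and 21.4 ± 0.431 CPM with PBS, a log2 fold change of 2.96, and Inpp5b rose by 2.03. Inppl1, which encodes SHIP2, the closest relative of SHIP1, was picked for that relation after its values were seen. It stood at 235 CPM with β-elemene and 164 CPM with PBS (log2 fold change 0.52, SE 0.07, edgeR adjusted p = 1.44e-05), where Inpp5d fell by 2.88. With library size alone Inppl1 stood at -0.12 (adjusted p = 0.117).

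Of 28 tested genes of the AKT, PDK1 and mTOR list, 10 rose, 12 fell and 6 did not pass, with a median of -0.11 (8 and 18 with the upper quartile, 6 and 21 with library size alone). Phlpp1, which encodes a phosphatase of AKT, stood at 168.6 ± 10.8 CPM with β-elemene and 9.69 ± 0.156 CPM with PBS (SD, n = 3 each), with 4.12 as its log2 fold change (SE 0.07, edgeR adjusted p = 2.66e-14). The related gene Phlpp2 rose by 1.87. Akt2 rose by 1.11, while Akt1 fell by 0.33. Deptor, an mTOR-binding inhibitor, fell by 2.70, and Foxo4, a transcription factor that AKT restrains, fell by 2.14, with Foxo3 at -1.59 and Foxo1 at -0.94. Akt1, Akt2, Phlpp2, Foxo1 and Foxo3 were picked after their values were seen, and the directions of all 8 genes named from this list held under every scaling tried.

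Upstream, 22 tested genes that feed class IA enzymes gave 9 higher, 10 lower and 3 not passing, with a median of -0.09 (7 and 13 with the upper quartile, 6 and 15 with library size alone). Lyn and Syk, tyrosine kinases that act near Fc receptors and were named after their values were seen, rose by 2.89 and 2.08. Other cytoplasmic tyrosine kinases on the list, named in the same way, were mixed. Src stood at 1.53 and Fgr at -0.83 (edgeR adjusted p = 3.98e-05), and Btk did not pass. Flt1, the receptor of the series title, fell by 2.98, and the docking gene Gab3 fell by 3.02. A list of class IB inputs and RAS inputs held 26 G protein, chemoattractant receptor and RAS genes, and was not split by the enzyme they feed. Of the 26, 17 rose, 6 fell and 3 did not pass, with a median of 0.46 (12 and 7 with the upper quartile, 9 and 11 with library size alone). Fpr2, a formyl peptide receptor, rose by 8.40, and Fpr1, its relative, had 1555, 1253 and 1612 counts with β-elemene and 0, 1 and 4 counts with PBS. Rasgrp3, an exchange factor for RAS, had 9, 1 and 3 counts with β-elemene and 87, 52 and 58 counts with PBS, a log2 fold change of -3.21 that ran from -4.26 to -2.75 as single libraries were left out, the lowest without β-elemene replicate 1, and Gnb5, a divergent G protein β subunit, fell by 1.67.

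Downstream, 25 effectors that bind or answer to PIP3 gave 12 higher, 8 lower and 5 not passing, with a median of 0.14 (7 and 14 with the upper quartile, 5 and 18 with library size alone). The exchange factor Vav2, the kinase Tec and the adaptor Dapp1 were lower, at -2.74, -1.99 and -1.79 on the log2 scale. Plekha2, an adaptor for the bisphosphate that SHIP1 makes, rose by 1.46, and the GTPase gene Rac2 rose by 1.2. Plekha1, the relative of Plekha2 on the same list, was lower, at -0.31 (edgeR adjusted p = 0.00121), and was named after its values were seen. Of 13 SHIP1 partners, 6 rose, 5 fell and 2 did not pass, with a median of 0.15 (6 and 7 with the upper quartile, 4 and 8 with library size alone). Ptpn6, which encodes the tyrosine phosphatase SHP-1, rose by 2.49, while the inhibitory receptor gene Cd300lf and the adaptor Dok2 were lower, at -1.96 and -1.58 on the log2 scale. Of 13 enzymes that supply the lipid substrate, 7 rose, 3 fell and 3 did not pass, with a median of 0.17 (5 and 7 with the upper quartile, 5 and 8 with library size alone). Pip5k1b, Cds1 and Pi4k2b rose by 2.74, 2.74 and 2.39, and Pip5k1c and Pip4k2a fell, at -1.07 and -0.25. The call for Pip4k2a was lost without β-elemene replicate 1 (adjusted p = 0.0814) and without PBS replicate 2 (adjusted p = 0.0536). The medians of the lists are read against -0.06 over all genes tested.

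**Figure D5:**
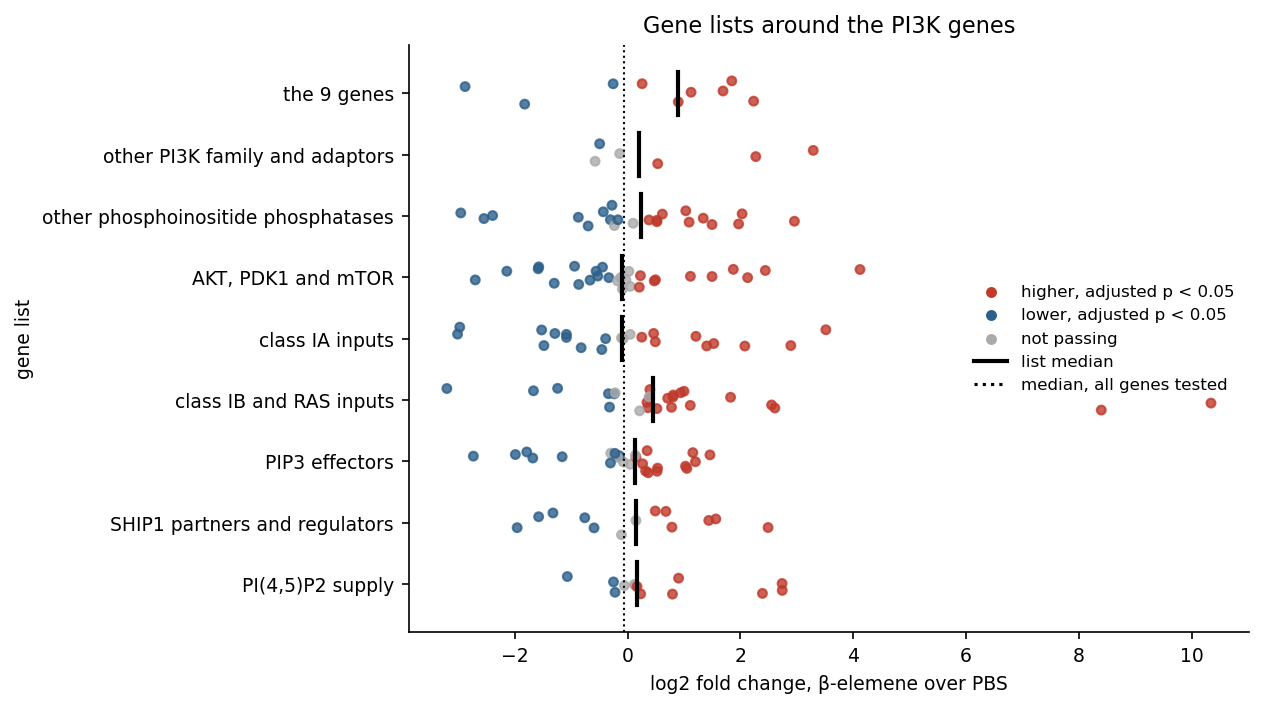
Log2 fold change (β-elemene over PBS) of each tested gene in the 9-gene set and in 8 lists around it; points are genes, coloured by the edgeR call, black bars are list medians and the dotted line is the median of all genes tested, -0.06. Each list holds both higher and lower genes and the 9 genes have a median of 0.90.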

How the data were processed

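RNA had an integrity number of at least 7, and libraries were stranded, poly(A)-selected and read from both ends, per the labels' protocols. The submitters' processing notes name HISAT2 2.2.1.0, GRCm38.p6 and mm10. What the authors deposited is a table of raw read counts per gene; no source used here gives its counting tool, strand setting or filter. Gene identifiers were used to restore 27 symbols altered by a spreadsheet. Sample titles gave the groups and replicate numbers. Replicates differed beyond sampling noise in every pair (chi-square per degree of freedom 3.70 to 13.2). A count of 0 allows up to 3 counts, or 0.116 to 0.195 CPM, which covers counting error only.

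Genes passing filterByExpr (minimum count 10, total 15) were scaled by TMM and tested with edgeR 4.0.16 under R 4.3.3 (robust glmQLFit, 4 residual degrees of freedom, no covariate, adjusted p threshold 0.05). SEs come from the F statistic. Within-library ratios had exact two-sided permutation tests, and the ratios of regulatory to catalytic genes were added after the counts were seen. The edgeR fit was also run on simulated counts in which few genes differed between the groups. In these data 76.7% of genes passed, so the simulation does not speak to the scaling used here. Alternatives were 3 scalings, 2 filters, DESeq2 1.42.0, limma-voom (limma 3.58.1), a replicate block, each library left out, and other gene lengths.

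The 9 genes and all lists were chosen with earlier results of these data known. Genes named from each list were the 3 largest passing changes with separate groups and at least 1 CPM on average, plus up to 2 of the opposite sign, and from each marker list the most abundant gene over all 6 libraries; other markers were named after their values were seen. A few genes picked this way are left unreported here. Mir155hg and Mir155, on the list of SHIP1 partners, were not analysed here.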

Additional observations from a re-analysis of the deposited data

How the results depend on the processing

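Over the alternatives tried, 8 of the 9 genes kept their direction and stayed past the threshold. Pik3ca did not: its log2 fold change was -0.059 with the upper quartile and -0.38 with library size alone, against 0.26 with TMM. Library size alone also gave 2166 genes higher and 8003 lower over all genes, 44 higher and 93 lower over the pooled lists, -0.10 for Pik3c2a and -0.12 for Inppl1. With no division by gene length, the differences in share (β-elemene minus PBS) were -8.22 points for Pik3ca, -14.0 for Pik3r1, -6.34 for Pik3r2, 16.5 for Pik3r5 and 3.91 for Pik3r6. The Inpp5d ratio then differed by -1.32, and by -1.52 with the longest transcript as length, and the class IA ratio by -0.306 without lengths. These shifts follow from the lengths used. Same-numbered samples did not deviate together (correlations -0.03, 0.06 and 0.02), so the numbers were not taken as pairs. With the replicate block Inpp5d stood at -2.89, with 6 of the 9 genes higher and 3 lower. With 3 libraries a group, an exact permutation test cannot go below p = 0.1, which limits the ratios.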
